A study of Arabidopsis thaliana with 9 samples.

Results

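EXPA4, EXPB3 and XTH19 encode 3 wall-loosening proteins of Arabidopsis thaliana, and each was measured by 1 probe set in roots of wild-type plants (Col-0) and of a pair of mutant lines, cngc1-3 and cngc19. The members were every probe set annotated to exactly one of these genes, which gave 3 probe sets of the 22746 that are not array controls. EXPA4 (AT2G39700) was read by 267590_at, EXPB3 (AT4G28250) by 253815_at and XTH19 (AT4G30290) by 253608_at. The genes had been picked from an earlier analysis of the same arrays for their differences between a mutant line and Col-0: EXPB3 and XTH19 in cngc1-3, and EXPA4 in cngc19. Those differences are therefore given here as descriptions, with no test.

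The study placed 9 Affymetrix ATH1 arrays on 3 lines, with 3 arrays each. Both mutant lines are T-DNA knock-outs in the Col-0 background, and cyclic nucleotide-gated channels, after which they are named, let cations through plant cell membranes. All plants had full rosettes and no flowering stem (growth stage 3.90). Grown first on agar, they were placed in hydroponics at day 18, kept there for 7 days and harvested at day 25, and the roots of 20 to 30 plants were bulked for each tube. Although the title of the series names caesium toxicity, no caesium treatment is listed for any array. It is not stated whether the tubes of a line came from separate cultures, and p-values then reflect only tube-to-tube spread, which may be technical.

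Expansins loosen plant cell walls in acid conditions without cutting the polymers, and they let turgor stretch the wall. The family holds alpha-expansins, such as EXPA4, beta-expansins, such as EXPB3, and smaller groups of expansin-like proteins. XTH19 belongs to the xyloglucan endotransglucosylase/hydrolases, enzymes that cut xyloglucan, the hemicellulose that coats cellulose, and can rejoin the cut end to another chain. In roots, these proteins are known from the zones where cells elongate and, for some members, from root hairs.

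Signals are MAS5 intensities on a linear scale, with each array scaled to a common trimmed mean. Before any comparison of lines, 2 of the 3 Col-0 arrays stood apart. Over the 13648 probe sets bright enough to be tested, Col-0 replicate 2 correlated with the other 7 arrays (those that are not Col-0 replicates 2 and 3) at r of -0.04 to -0.02 and Col-0 replicate 3 at 0.26 to 0.38, while those 7 correlated among themselves at 0.735 to 0.985. The spiked-in controls, as a ratio to their median over the remaining arrays, stood at 17.3 and 6.65 on Col-0 replicates 2 and 3 and at 0.680 to 1.29 on the rest. On cngc1-3 replicate 3, the 3'/5' signal ratio of actin was 199.7, against 1.34 to 5.81 on the other arrays. By older actin probe sets the ratio was 98.5 there, against 0.536 to 14.4, and by GAPDH it was 6.37, against 0.240 to 2.81. Col-0 replicate 2 had the lowest value of each ratio. The root label was checked with 3 tested markers of 20 (PYK10, a glucosidase of roots, and the root hair expansins EXPA7 and EXPA18), whose summed signal was 4776, 720.5 and 506.8 on the Col-0 arrays, 4843 to 5773 in cngc1-3 and 4028 to 5688 in cngc19. PYK10 alone gave 4398, 260.8 and 448.0 on the Col-0 arrays. On Col-0 replicate 2, EXPA7 (317.6) and EXPA18 (142.1) did not fall with it, and on replicate 3 they were at 28.6 and 30.3. The 6 tested shoot markers of 32 summed to 103.6, 1053 and 13729 on the Col-0 arrays, to 442.1 to 616.1 in cngc1-3 and to 153.8 to 906.2 in cngc19. The lowest marker signal was 0.979, for a shoot marker on cngc19 replicate 3, and no detection calls were used. The members' differences from Col-0 are therefore given with all 3 wild-type arrays and against replicate 1 alone.

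EXPA4, the alpha-expansin, gave signals of 480.6, 31.0 and 7.07 on Col-0 replicates 1, 2 and 3. In cngc1-3 its signals were 1069, 977.1 and 30.8, and in cngc19 they were 698.6, 705.3 and 589.7. The gene was thus bright on 6 arrays and dim on 3, and the dim ones were 2 wild-type arrays and 1 of cngc1-3. Its mean was 172.9 ± 266.7 in Col-0, 692.3 ± 574.8 in cngc1-3 and 664.5 ± 64.9 in cngc19 (SD, n = 3 arrays each). The highest array exceeded the lowest by 68.0 times in Col-0 and by 34.7 times in cngc1-3, but by 1.20 times in cngc19.

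EXPB3, the beta-expansin, gave 342.4, 84.5 and 138.5 in Col-0. It gave 662.1, 695.9 and 197.4 in cngc1-3, and 460.1, 420.1 and 312.4 in cngc19. The same 3 arrays that were dim for EXPA4 held the 3 lowest signals of EXPB3, although the range was narrower, at 4.05 times within Col-0, 3.53 times within cngc1-3 and 1.47 times within cngc19. The means were 188.5 ± 136.0 in Col-0, 518.5 ± 278.6 in cngc1-3 and 397.5 ± 76.4 in cngc19 (SD, n = 3 arrays each).

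XTH19, the xyloglucan enzyme, gave 690.2, 21.2 and 9.75 in Col-0. Its signals were 344.9, 383.0 and 552.8 in cngc1-3 and 447.6, 354.6 and 471.6 in cngc19. Its highest and its 2 lowest signals of all 9 arrays were wild-type ones, and the mutant arrays lay between them. Unlike both expansins, XTH19 was not dim on cngc1-3 replicate 3, where its signal was the highest of the 6 mutant arrays. The means were 240.4 ± 389.6 in Col-0, 426.9 ± 110.7 in cngc1-3 and 424.6 ± 61.8 in cngc19 (SD, n = 3 arrays each), and the range within Col-0 was 70.8 times.

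**Figure D1:**
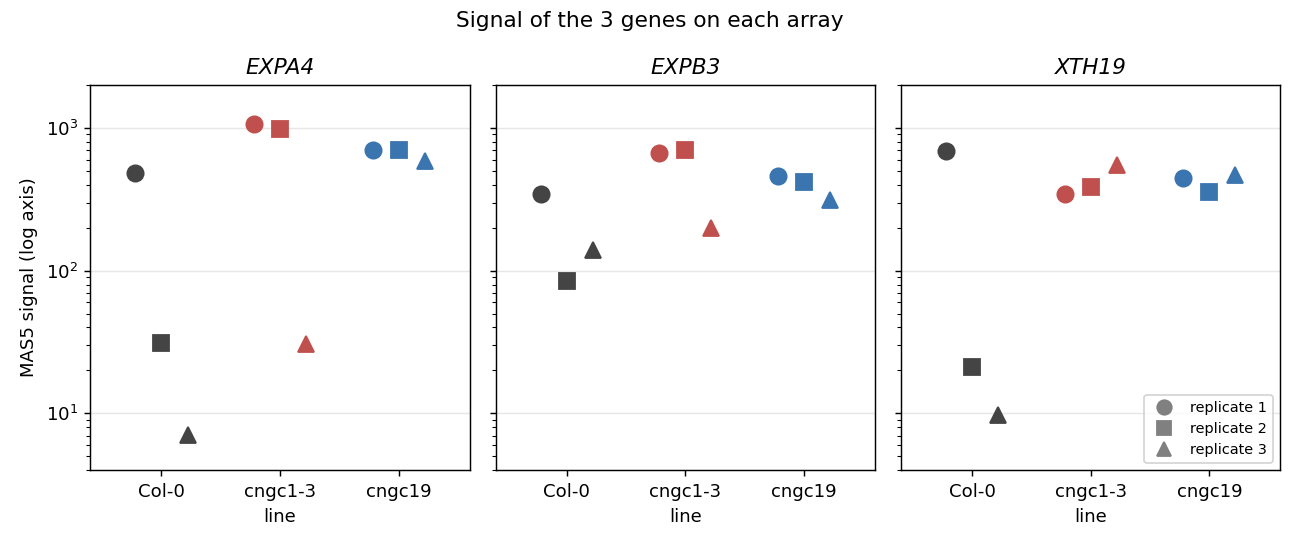
MAS5 signal (log axis) of EXPA4, EXPB3 and XTH19 on each of the 9 arrays, by line, with each point an array. EXPA4 falls to 31.0 and 7.07 on Col-0 replicates 2 and 3 and to 30.8 on cngc1-3 replicate 3, whereas XTH19 is low on the 2 Col-0 arrays alone.

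The place of each gene among all probe sets of its own array does not depend on the scaling. EXPA4 stood at percentiles 94.2, 33.6 and 12 on the Col-0 arrays, at 97.2, 97.1 and 45.4 in cngc1-3, and between 95.6 and 95.9 in cngc19. EXPB3 stood at 91.5, 55.7 and 76.2 in Col-0, at 95.3, 95.8 and 85.4 in cngc1-3 and at 90.7 to 93.4 in cngc19. XTH19 stood at 96.3, 23.3 and 16.6 in Col-0 and between 91.1 and 94.7 on all 6 mutant arrays. All 3 genes thus stood at percentile 90.7 or higher on Col-0 replicate 1 and on 5 of the 6 mutant arrays, and on cngc1-3 replicate 3 only XTH19 did. In bulk roots, fewer cells that express a gene and less RNA per cell cannot be told apart.

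On the log2(signal + 16) scale, which understates changes of dim genes, all 3 members had higher means in both mutant lines than in Col-0. EXPA4 differed by 2.18 (SE 1.25) in cngc1-3 and by 3.06 (SE 1.25) in cngc19. EXPB3 differed by 1.40 (SE 0.63) and 1.20 (SE 0.63), and XTH19 by 2.31 (SE 0.99) and 2.32 (SE 0.99). Both differences of a gene share the same Col-0 arrays. EXPA4 in cngc19 was the only one of these 6 comparisons in which every mutant array lay above every Col-0 array, and 7.45% of all tested probe sets did so. In cngc1-3, where 13.1% of tested probe sets lay wholly above Col-0, none of the 3 members did. With limma, 0 of the 13648 tested probe sets (0.0%) passed an adjusted p under 0.05 in either mutant against Col-0, while 3301 in cngc1-3 and 2464 in cngc19 had an unadjusted p under 0.05. These shares use the contrasts on which the genes were picked and are given as background only.

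Col-0 replicate 1 was the wild-type array nearest the mutant arrays, though not equally near to each. Its r was 0.950 for cngc19 replicate 3 and for the rest ran from 0.764 (cngc1-3 replicate 3) up to 0.878 (cngc1-3 replicate 2). By contrast, cngc19 replicate 3 reached 0.803 and 0.814 with replicates 1 and 2 of its own line. Col-0 replicate 1 and cngc19 replicate 3 also had the lowest summed shoot markers, 103.6 and 153.8. Set against Col-0 replicate 1 alone, the 3 genes parted. XTH19 was lower on all 6 mutant arrays, by log2 differences of -0.97, -0.82 and -0.31 in cngc1-3 and of -0.61, -0.93 and -0.53 in cngc19. Its mean signal over the 3 arrays was 426.9 in cngc1-3 and 424.6 in cngc19, against 690.2 on Col-0 replicate 1. EXPA4 was higher on 5 of the 6 mutant arrays, with differences of 1.13, 1.00 and -3.41 in cngc1-3 and of 0.53, 0.54 and 0.29 in cngc19. EXPB3 had differences of 0.92, 0.99 and -0.75 in cngc1-3 and of 0.41, 0.28 and -0.13 in cngc19. A single wild-type array carries no measure of its own spread, so these values compare arrays and not lines.

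**Figure D2:**
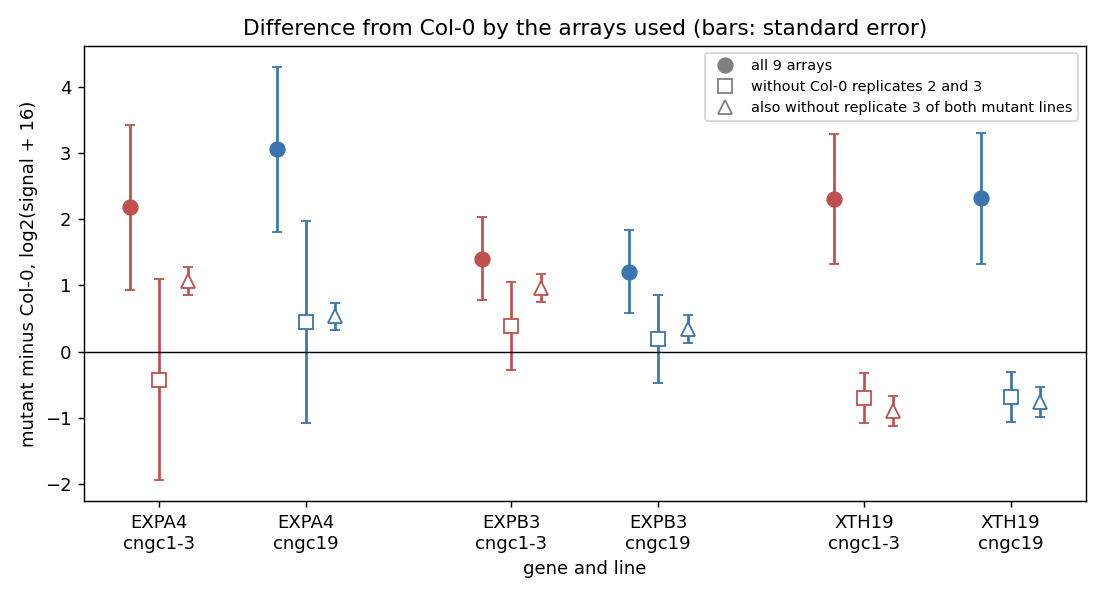
Log2 difference of each mutant line from Col-0 for EXPA4, EXPB3 and XTH19, with all 9 arrays and with arrays left out. For XTH19 the difference of 2.31 in cngc1-3 becomes -0.70 without Col-0 replicates 2 and 3, and that of 2.32 in cngc19 becomes -0.69.

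Leaving out Col-0 replicates 2 and 3 turned the sign of 3 of the 6 differences. XTH19 went to -0.70 in cngc1-3 and to -0.69 in cngc19, and EXPA4 in cngc1-3 went to -0.43. The other 3 kept a positive value but shrank, to 0.45 for EXPA4 in cngc19 and to 0.39 and 0.19 for EXPB3 in cngc1-3 and cngc19. With cngc1-3 replicate 3 left out as well, EXPA4 and EXPB3 in cngc1-3 stood at 1.06 and 0.96 above Col-0 replicate 1, and XTH19 at -0.90.

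How far the 3 genes dropped on the outlying wild-type arrays differed by gene. Relative to its median over the other 7 arrays, EXPA4 was lower by log2 values of -3.93 on Col-0 replicate 2 and -4.95 on replicate 3. XTH19 stood at -3.64 and -4.17, and EXPB3 at -2.12 and -1.50. On Col-0 replicate 2, 4.02% of all tested probe sets had dropped as far as EXPA4, 5.20% as far as XTH19 and 16.9% as far as EXPB3. On replicate 3 the shares were 0.462%, 0.865% and 16.3%. The genes were picked for higher values in a mutant line than in Col-0, so these shares describe the choice and carry no test. The spiked-in ratios and the summed root and shoot markers moved on the same 2 arrays, though the shoot sum did so mainly on replicate 3 (13729). On replicate 2 it was 1053, not far above cngc19 replicate 1 (906.2), and 2 of the 6 shoot markers lay below their median over the other 7 arrays. On Col-0 replicate 2 the root sum was low through PYK10 and not through EXPA7 or EXPA18. The part of these shifts in the drops was not tested.

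cngc1-3 and cngc19 can be set against each other without the wild type, and none of the 3 genes differed past the threshold. EXPA4 was at -0.88 in cngc1-3 relative to cngc19 (95% interval -3.62 to 1.87), EXPB3 at 0.20 (-1.18 to 1.58) and XTH19 at -0.01 (-2.18 to 2.15). Each had a limma adjusted p of 1.00. The intervals hold differences of over 1 log2 unit in both directions, so this fit did not exclude a change of that size for any of the genes. Of all tested probe sets, 0 (0.0%) passed with limma, and 13 had an unadjusted p under 0.05. All 3 members overlapped between the mutant lines, whereas 4.81% of tested probe sets lay wholly higher in cngc1-3 and 3.45% wholly lower. The arrays in this comparison also enter the contrasts that chose the genes, and the spread is pooled over all 9 arrays, Col-0 included. That pooled fit gave SEs of 1.25 for EXPA4, 0.63 for EXPB3 and 0.99 for XTH19. Fitted on both mutant lines alone, the same differences had SEs of 1.08, 0.47 and 0.27, so the width for XTH19 came largely with the Col-0 arrays. Without cngc1-3 replicate 3, EXPA4 turned to 0.61.

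EXPA4 and EXPB3 moved together over the arrays, and XTH19 did not follow them once the outlying wild-type arrays were left aside. On the log2 scale, EXPA4 and EXPB3 correlated at Pearson's r = 0.912 (Spearman's rho 0.9) over 9 arrays and at r = 0.860 (rho 0.893) over the other 7. EXPA4 and XTH19 correlated at r = 0.721 (rho 0) over 9 arrays and at -0.543 (rho -0.929) over 7. EXPB3 and XTH19 correlated at 0.725 (rho 0.183) and -0.690 (rho -0.714). These are descriptions over few arrays that share lines and scaling. Within the 7 arrays, Col-0 replicate 1 and cngc1-3 replicate 3 had the 2 highest signals of XTH19 and were among the 3 lowest for EXPA4, while cngc1-3 replicates 1 and 2 had the 2 highest signals of EXPA4.

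**Figure D3:**
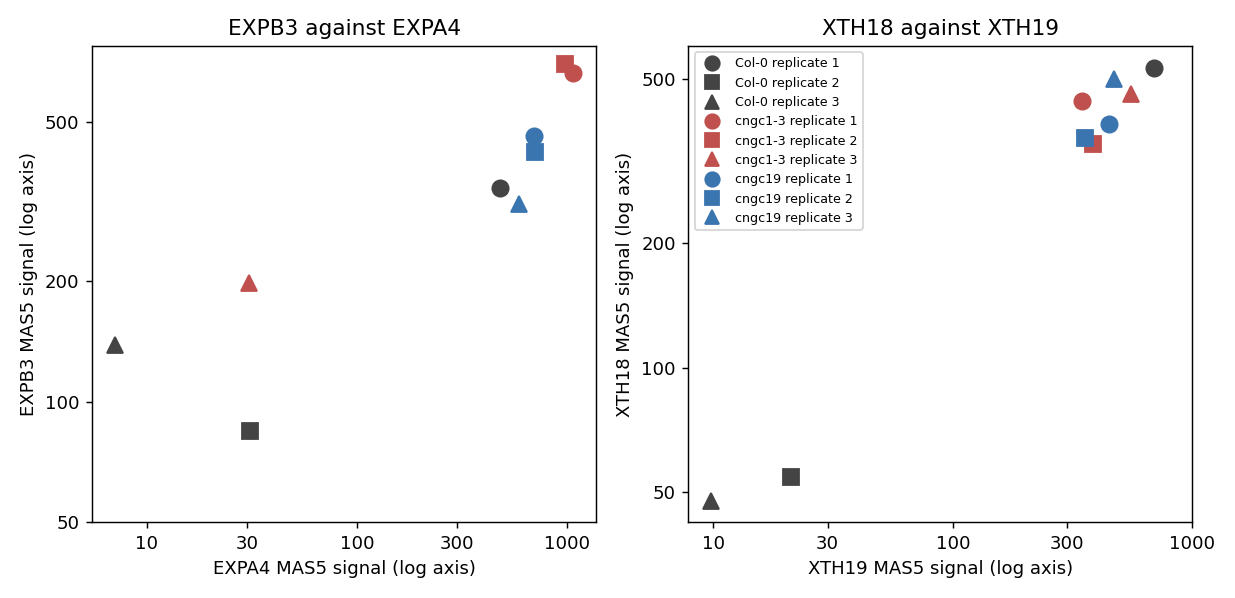
Signals of EXPB3 against EXPA4 and of XTH18 against XTH19 (MAS5 signal, log axes), with each point an array, coloured by line. EXPB3 and EXPA4 correlate at 0.912 over the 9 arrays with cngc1-3 replicate 3 on the low side, and XTH18 and XTH19 correlate at 0.992 through the 2 low Col-0 arrays.

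The genes most like each member were sought among the 7419 tested probe sets with 1 gene name, by Pearson's r on the log2 scale. Over all 9 arrays, the nearest to XTH19 were AT5G44380 and AT3G09490 (both 0.993), XTH18 (0.992), AT5G19930 (0.990) and AT5G26280 (0.990). XTH18 is a close paralogue of XTH19, and in the RefSeq table (assembly TAIR10.1) their loci, AT4G30280 and AT4G30290, are direct neighbours on chromosome 4. Its signals were 532.0, 54.6 and 47.8 in Col-0, 440.5, 348.0 and 459.5 in cngc1-3 and 388.8, 359.2 and 498.4 in cngc19. XTH18 was therefore low on the same 2 Col-0 arrays, and its r with XTH19 was 0.743 over the other 7 arrays. Whether either probe set also picks up the transcript of the other gene was not tested.

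For EXPA4, the nearest genes over 9 arrays were AT1G26300 (0.990), CCR2 (0.988), AT3G07480 (0.981), AT2G36090 (0.981) and MAB1 (0.980). CCR2 (AT1G80820) encodes a cinnamoyl-CoA reductase. For EXPB3 they were AT5G26360 (0.985), AT3G04830, AT5G67220 and AT1G53530 (each 0.974) and AT5G57290 (0.973). Over the 7 arrays the nearest genes were others in all cases. They were AT4G18070 (0.998), AT4G17310 (0.993), AT5G08300 (0.991), AT1G77610 (0.991) and AT3G20490 (0.990) for EXPA4. For EXPB3 they were AT1G33230 (0.982), AT4G40080 (0.981), IDH-VI (0.980), the gibberellin receptor gene GID1A (0.971) and the alpha-expansin EXPA15 (0.969). For XTH19 they were AT3G51320 (0.969), AT3G29240 (0.960), AT5G26130 (0.950), AT4G11160 (0.947) and SP1L4 (0.947).

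The number of genes that tracked a member at r of 0.9 or more changed with the arrays used. For XTH19 it was 421 over 9 arrays and 35 over 7, for EXPA4 117 and 287, and for EXPB3 108 and 97. EXPA15, taken up here for its likeness to EXPB3 over the 7 arrays, had signals of 512.5, 537.1 and 69.2 in cngc1-3 and 325.6, 318.6 and 223.7 in cngc19. Its Col-0 signals were 157.3, 362.5 and 116.7, so on Col-0 replicate 2 it was bright where EXPA4 and EXPB3 were dim. Its r with EXPB3 was 0.530 over 9 arrays and with EXPA4 0.660, against 0.969 and 0.911 over 7.

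The tested expansins, EXPA4 and EXPB3 included, did not share one direction. Of 35 matched expansin genes, 18 had a named probe set, and 12 passed the brightness filter, which uses the mean of all 9 arrays. None of the 12 passed with limma in either mutant against Col-0, as was so for all 13648 tested probe sets. In cngc1-3, 5 were higher and 7 lower than Col-0 (median -0.13, against -0.03 over all tested probe sets), and in cngc19 7 were higher and 5 lower (median 0.15, against 0.05). EXPA4 and EXPB3, picked for higher values in a mutant line, count among the higher genes in both lines. Against Col-0 replicate 1 alone, 4 of the 12 were higher and 8 lower in cngc1-3 (median -0.26, all tested -0.08), and 6 and 6 in cngc19 (median -0.09, all tested -0.05). EXPA20 was the only one of them wholly below Col-0 in cngc19, as were 6.88% of tested probe sets, with 23.4, 18.5 and 32.4 against 39.5, 37.3 and 53.7, and its difference was -0.55 with all arrays and -0.46 against Col-0 replicate 1 alone.

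The expansins of other types varied in their own ways. EXLA1, an expansin-like gene, had 200.9, 11.4 and 116.7 in Col-0, 245.5, 154.2 and 408.2 in cngc1-3 and 322.2, 322.8 and 115.2 in cngc19. Its log2 differences of 1.53 and 1.42 became 0.30 and 0.19 against Col-0 replicate 1 alone, and its lines overlap. The root hair expansin EXPA7 had 194.7, 317.6 and 28.6 in Col-0, 60.3, 114.5 and 23 in cngc1-3, and 80.3, 75.1 and 120.7 in cngc19. EXPA18, also of root hairs, stayed between 130.2 and 183.5 on every array except Col-0 replicate 3, where it was 30.3. The 6 named expansins under the filter (EXPA16, EXPA21, EXPA24, EXPB5, EXLA2 and EXLA3) had signals of 0.631 to 41.1 on the 7 arrays. On Col-0 replicate 2 they ranged from 7.40 to 141.7, and 4 of the 6 were above all 7 arrays there. Of the 13648 tested probe sets, 4751 were also above all 7 arrays on Col-0 replicate 2. No such count was made for the probe sets under the filter, so whether the 4 are a trait of expansins cannot be said.

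Low expansin signal on cngc1-3 replicate 3 extended past EXPA4 and EXPB3. Of the 12 tested expansins, 9 were below their 7-array median there (median -1.01 on the log2 scale, against 0.05 over all tested probe sets). On this array 7 of the 12 (58.3%) had a signal under that of all 6 others of the 7, against 22.3% of all tested probe sets. These counts and the median include EXPA4 and EXPB3, whose low values there were already known. The others lowest there were EXPA7, EXPA9, EXPA15, EXPA18 and EXPB1, of which EXPA7 and EXPA18 also served as root markers. The low values were not common to the family, since EXPA20 (51.6) and EXLA1 (408.2) had their highest signal of the 7 arrays there. Of the other wall lists, 3 of 6 tested GH9 endoglucanases, 2 of 5 tested genes of xyloglucan synthesis and none of 8 tested xyloglucan endotransglucosylase/hydrolases were lowest on this array, and the lists were not tested against each other. The 3'/5' ratio of actin was 199.7 on this array, and its part in the low expansin signals was not tested.

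**Figure D4:**
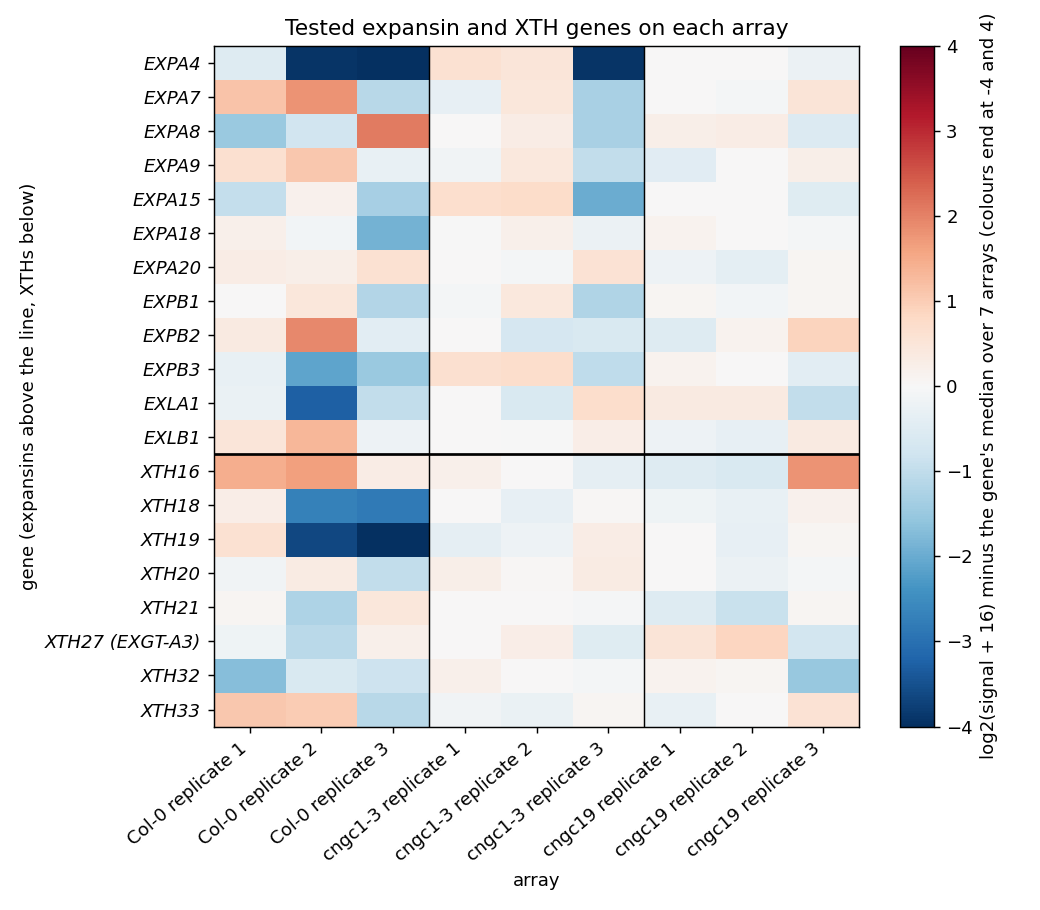
Log2 signal of each tested expansin and xyloglucan endotransglucosylase/hydrolase on the 9 arrays, relative to the gene's median over the 7 arrays left when Col-0 replicates 2 and 3 are set aside, with colours that end at -4 and 4. On cngc1-3 replicate 3, 9 of 12 expansins, EXPA4 and EXPB3 among them, lie below their median. XTH19 and XTH18 are low only on Col-0 replicates 2 and 3.

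Among the xyloglucan endotransglucosylase/hydrolases, 10 of 33 matched genes had a named probe set and 8 were tested. None of the 8, XTH19 included, passed with limma, as was so for all 13648 tested probe sets. In cngc1-3, 6 were higher than Col-0 and 2 lower (median 0.37, all tested -0.03), and in cngc19 5 were higher and 3 lower (median 0.36, all tested 0.05). Against Col-0 replicate 1 alone, 3 were higher and 5 lower in both lines, with medians of -0.22 and -0.44 (all tested -0.08 and -0.05). XTH18 and XTH19 had the highest differences of the family, and XTH18 went from 1.67 and 1.66 to -0.35 and -0.36 against Col-0 replicate 1 alone. XTH32 lay wholly above Col-0 in cngc1-3, with 288.6, 247.3 and 232.0 against 64.4, 156.6 and 131.7, as did 13.1% of tested probe sets, and it was higher also against Col-0 replicate 1 alone, by 1.75 on the log2 scale. In cngc19 it gave 273.0, 261.0 and 76.2, overlapped Col-0 and differed from Col-0 replicate 1 alone by 1.28. XTH16 lay wholly below Col-0 in cngc1-3, with 71.0, 58.9 and 42.2 against 188.9, 216.3 and 75.9, as did 11.3% of tested probe sets, and its difference was -1.18 with all arrays and -1.50 against Col-0 replicate 1 alone. Its cngc19 signals of 36.8, 32.6 and 243.4 overlapped Col-0, and its difference there from Col-0 replicate 1 alone was -1.23. XTH20 was higher in all cngc1-3 arrays than in any of cngc19, at 149.3, 126.8 and 157.7 against 123.7, 103.8 and 117.2, as were 4.81% of tested probe sets.

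Other genes that build or cut the same wall polymers were read by few named probe sets. Of 25 endoglucanases of family GH9, which cut glucan chains, 6 were tested, and 3 were higher and 3 lower in each mutant line than in Col-0 (medians -0.25 in cngc1-3 and 0.10 in cngc19, against -0.03 and 0.05 over all tested probe sets). Against Col-0 replicate 1 alone, 1 was higher and 5 lower in cngc1-3 (median -0.47, all tested -0.08), and 3 were higher and 3 lower in cngc19 (median 0.05, all tested -0.05). GH9B13 had 433.6, 28.0 and 332.4 in Col-0, 934.1, 1005 and 581.5 in cngc1-3, and 623.6, 727.9 and 394.0 in cngc19. It lay wholly above Col-0 in cngc1-3, as did 13.1% of tested probe sets, and overlapped it in cngc19. Its difference of 2.13 in cngc1-3 became 0.89 against Col-0 replicate 1 alone, and that of 1.61 in cngc19 became 0.37. GH9A3 lay wholly below Col-0 in cngc1-3, as did 11.3% of tested probe sets, and overlapped it in cngc19. Its differences of -1.34 in cngc1-3 and -0.81 in cngc19 became -0.40 and 0.13 against Col-0 replicate 1 alone. Of 16 genes of xyloglucan synthesis and trimming, 5 were tested, all of them glucan synthases that make the xyloglucan backbone or are related to those that do. All 5 were lower in both lines, with medians of -0.97 in cngc1-3 (all tested -0.03) and -0.58 in cngc19 (all tested 0.05). Against Col-0 replicate 1 alone, 1 was higher and 4 lower in cngc1-3 (median -0.39, all tested -0.08). In cngc19 all 5 were lower (median -0.21, all tested -0.05).

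CSLC04, which makes the xyloglucan backbone, was among the genes of these lists whose direction did not rest on Col-0 replicates 2 and 3. Its signals were 211.9, 252.5 and 140.5 in Col-0, 78.5, 85.5 and 99.0 in cngc1-3 and 103.8, 91.2 and 82.8 in cngc19. Every mutant array was below every wild-type array, as for 11.3% of tested probe sets in cngc1-3 and 6.88% in cngc19, and against Col-0 replicate 1 alone the differences were -1.14 and -1.07. The related CSLC12 overlapped Col-0 in both lines. Its differences of -1.67 in cngc1-3 and -1.54 in cngc19 shrank to -0.39 and -0.26 against Col-0 replicate 1 alone. None of the genes in these lists passed with limma, as was so for all 13648 tested probe sets. Of 13 pectin methylesterases, which remove methyl groups from pectin, 1 was tested, ATPMEPCRB, with differences of 0.27 in cngc1-3 and 0.18 in cngc19, which turned to -0.70 and -0.79 against Col-0 replicate 1 alone. None of 11 plasma membrane proton pump genes, which acidify the wall, and none of 10 cellulose synthase genes had a named probe set.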

How the data were processed

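Root RNA of 3 lines was measured on 9 one-colour ATH1 arrays. MAS5 and GCOS gave the deposited linear intensities, per the submitters' processing notes. The table held 22810 probe sets, 64 of them controls, and no pair of arrays was identical. The deposited scaling was kept. The number of arrays limits the precision, and no detection calls were used here. Values were analysed as log2(signal + 16), and the 13648 probe sets at or above the 40th percentile of the mean over 9 arrays were tested with limma 3.58.1 in R 4.3.3 (1 model of all arrays, eBayes with trend, two-sided, Benjamini-Hochberg adjusted p under 0.05), after a test on simulated data. The simulated arrays took their means and spread from the mutant arrays, so the fit was not tried on data with outlying Col-0 arrays. Summaries used pandas 2.3.3 and numpy 2.4.6, and plots matplotlib 3.10.9, in Python 3.11.15.

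By the platform's annotation, 13513 probe sets carried 1 symbol and 503 several, and 8730 stayed unnamed. Of the single symbols, 13436 were updated through RefSeq (TAIR10.1). The genes that the line names point to had no named probe set, so the line labels were not checked through them. The members and gene lists were chosen with earlier results of these data known. Named were the members, any tested expansin or XTH gene, up to 3 genes of each other list by smallest unadjusted p, and the 5 genes most like each member. Alternatives changed the pseudocount, filter, scaling, trend, weights, block and arrays used.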

Additional observations from a re-analysis of the deposited data

How the results depend on the processing

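With 3 arrays per line, 2 of them unlike the rest in Col-0, the wild-type spread limits every mutant comparison, and differences of dim probe sets are understated. Values are log2 differences unless called counts, and causes were not tested. Without Col-0 replicates 2 and 3, EXPA4 was at -0.43 in cngc1-3 and 0.45 in cngc19 against Col-0, EXPB3 at 0.39 and 0.19, and XTH19 at -0.70 and -0.69. Without cngc19 replicate 3 as well, these were -0.43 and 0.53, 0.39 and 0.35, and -0.70 and -0.77, and XTH19 in cngc1-3 against cngc19 was 0.067. Without Col-0 replicates 2 and 3 and replicate 3 of both mutant lines, EXPA4 was at 0.53 in cngc19, EXPB3 at 0.35 and XTH19 at -0.90 in cngc1-3 and -0.77 in cngc19, and EXPA4 in cngc1-3 against cngc19 was 0.53. An alternative chosen after seeing the data left out Col-0 replicates 2 and 3 with cngc1-3 replicate 3. It gave EXPA4 0.45, EXPB3 0.19 and XTH19 -0.69 in cngc19, XTH19 -0.90 in cngc1-3, and EXPA4 0.61 between the mutant lines.

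Calls at an adjusted p under 0.05 numbered 0 in each comparison with all arrays. For cngc1-3 against Col-0 they were 1228 with array weights (a fit that stopped short of its convergence tolerance), 519 without Col-0 replicates 2 and 3 and cngc19 replicate 3, and 3434 without these and cngc1-3 replicate 3. For cngc19 against Col-0 the counts were 1047, 541 and 3248. For cngc1-3 against cngc19 they were 9 with array weights and 106 without the 4 arrays. With 1 array left out, they were 0 to 4810, 0 to 4448 and 0 to 0. The highest counts came without Col-0 replicate 1, and without cngc19 replicate 3 there were 14 and 11.

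With 1 array left out, EXPA4 spanned 1.27 to 3.67 in cngc1-3 and 2.15 to 4.36 in cngc19, EXPB3 0.99 to 1.97 and 0.80 to 1.71, and XTH19 1.42 to 3.81 and 1.43 to 3.82. Between the mutant lines, EXPA4 spanned -1.65 to 0.61, EXPB3 -0.10 to 0.77 and XTH19 -0.21 to 0.12. EXPA4 turned without cngc1-3 replicate 3 (0.61). EXPB3 turned without cngc1-3 replicate 1 (-0.068) or 2 (-0.10). XTH19 turned without cngc1-3 replicate 1 (0.12) or 2 (0.05) and without cngc19 replicate 1 (0.03) or 3 (0.067). Array weights, from that same fit, turned EXPA4 to 0.22, and centring each array on its median turned XTH19 to 0.094. Scaling moved the median of all tested probe sets against Col-0 from -0.03 and 0.05 to 0.28 and 0.30 with quantiles and to 0.52 and 0.51 with medians, and the members' means stayed above Col-0.

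A replicate block left each difference as it was, with XTH19 at 2.31, and gave 0 calls in each comparison. The numbers did not pair the arrays: same-numbered arrays' deviations correlated at -0.23 to 0.19 and others at -0.23 to 0.24, and 2 of 9 arrays correlated best with their own number.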
